A study of Rattus norvegicus with 4 samples.

Results

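Blood vessels of the testis were followed through the genes of 10 symbols taken by name: the growth factors Vegfa, Angpt2 and Edn1, the receptors Kdr, Flt1 and Ednrb, the endothelial proteins Pecam1, Thbd and Vwf, and the enzyme Nos3. Every probe set of the array annotated with just 1 of these symbols was kept, and each is reported separately. The rule found 19 probe sets for 9 genes, designed on 16 database sequences, among 7006 probe sets for 4736 genes with 1 symbol. No probe set carried Ednrb as its symbol, so that receptor is not analysed here. Vegfa had 4 probe sets, Nos3 had 6, Thbd and Vwf had 2 each, and the other 5 genes had 1 each.

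The samples were total testis of rats fed a diet lacking vitamin A, begun at 20 days of age and followed by retinol after 9 weeks. They form 4 groups of 1 deposited sample each: vitamin A-deficient testis without retinol (VAD, 0 h), and deficient testis at 4, 8 and 24 h after retinol, the circulating alcohol form of the vitamin. All 4 groups carried the deficiency, no vitamin A-sufficient testis is among them, and the strain, the dose and the number of animals behind a sample were not given in the sources used here. RNA was read on the Affymetrix Rat Genome U34 array, on which a probe set is a group of short oligonucleotides for 1 transcript.

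Values are the authors' deposited linear ratios, which lie around 1 and whose denominator is not stated. They hold no signal level, so genes cannot be ranked by abundance, presence of testis or endothelial transcripts cannot be checked, and only a probe set's own course over the 4 arrays can be read. Within 10% of 1 lay 12, 8, 5 and 3 of the 19 vascular probe sets on the VAD, 4 h, 8 h and 24 h arrays, beside 59.9%, 29.0%, 24.1% and 22.9% of all 8799 in the table, controls included. With 1 array per group there is no replicate and no test. The error quoted is therefore the noise of 1 probe set, the SD of the difference between the changes of 2 probe sets of the same gene divided by the square root of 2, over 1075 genes with probe sets from different database sequences. It came to 0.42 at 4 h, 0.51 at 8 h and 0.57 at 24 h against VAD on the log2 scale, and to 0.33, 0.32 and 0.38 for 8 h against 4 h, 24 h against 8 h and 24 h against 4 h. The SD of the changes over all probe sets with 1 symbol was 0.45, 0.54 and 0.58 at 4, 8 and 24 h against VAD, little above this noise. Probe sets of the same gene thus differed nearly as widely as the changes of all probe sets spread. A multiple of the noise on 1 probe set is therefore a place within that spread, not a secured change of its gene. The noise leaves out differences between animals. In whole testis, fewer endothelial cells, less RNA per endothelial cell and a change in other cell types cannot be told apart.

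As background, vascular endothelial growth factor A (encoded by Vegfa) drives vessel growth and permeability through the receptor tyrosine kinase VEGFR2 (Kdr), while VEGFR1 (Flt1) binds the same ligand tightly with weak kinase activity and acts largely as a decoy. Angiopoietin-2 (Angpt2) is released by endothelial cells and loosens vessels by antagonising the receptor Tie2. In the testis, vessels run in the interstitium beside the Leydig cells, and VEGF-A is made by Leydig and Sertoli cells. Endothelin-1 (Edn1) constricts vessels and also contracts the peritubular myoid cells around the tubules, and nitric oxide from endothelial nitric oxide synthase (Nos3) relaxes vessels. Pecam1 is an endothelial junction protein also carried by platelets and leukocytes. Thrombomodulin (Thbd) turns thrombin towards activation of the anticoagulant protein C, and von Willebrand factor (Vwf) tethers platelets.

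RefSeq promoter windows of assembly GRCr8, which run from 250 bases before a gene's annotated start to 50 after it, were found for 5 of the 9 genes, with 2 windows for Vegfa, 6 in all. The 250 bases before the start are shown for the VEGF receptor genes, both of which had lower ratios on all 3 retinol arrays, and for Edn1, which had higher ones. Each is printed 5′ to 3′ on the gene's strand, and capitals mark matches on either strand to any of 5 short motifs, each spelled out after the sequences.
Kdr, chr14:32571813-32572062, plus strand: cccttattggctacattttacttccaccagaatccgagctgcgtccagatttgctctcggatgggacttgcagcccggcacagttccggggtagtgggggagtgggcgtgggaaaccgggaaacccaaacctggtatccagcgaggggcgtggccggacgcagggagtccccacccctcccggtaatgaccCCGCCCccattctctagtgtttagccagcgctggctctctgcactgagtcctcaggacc
Flt1, chr12:12333180-12333429, plus strand: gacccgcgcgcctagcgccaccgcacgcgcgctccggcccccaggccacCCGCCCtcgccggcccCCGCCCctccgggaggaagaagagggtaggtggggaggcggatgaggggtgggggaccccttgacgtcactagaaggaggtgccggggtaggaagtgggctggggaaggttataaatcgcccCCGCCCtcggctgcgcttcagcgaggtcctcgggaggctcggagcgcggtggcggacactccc
Edn1, chr17:22666688-22666937, minus strand: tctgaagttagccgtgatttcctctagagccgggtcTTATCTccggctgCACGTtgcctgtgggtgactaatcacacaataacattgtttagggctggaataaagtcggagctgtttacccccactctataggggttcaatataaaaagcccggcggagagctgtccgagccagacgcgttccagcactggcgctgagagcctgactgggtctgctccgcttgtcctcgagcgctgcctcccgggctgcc
The Kdr window held 1 GC box (letters GGGCGG), starting 59 bases before the start, and the Flt1 window held 3, all on the opposite strand. Over the 6 windows 4 held a GC box, against 33.1% of all 33469 windows. The 6 windows were 57.3% to 72.7% G and C, above the median of 51.7% over all windows. The part of this base composition in the GC box count was not tested. Edn1 held 1 copy of the hypoxia response core, ACGTG, which 19.3% of all windows hold and no other of the 6 did. It also held 1 GATA factor site, AGATAA, as did 1 Vegfa window, against 11.6% of all windows. The nuclear receptor site AGGTCA, which retinoic acid receptors bind in repeats, stood in 1 of the 6, the downstream window of Vegfa, and in 16.2% of all. The ETS factor site CAGGAAG stood in 0 of the 6 windows and in 12.5% of all. The matches found did not overlap one another, and each is a description of letters only.

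Kdr was the member furthest from VAD at 4 h, and Angpt2 and Kdr were the furthest at 8 h and 24 h. Kdr, probe set U93306_at, had a ratio of 1.03 on the VAD array, 0.389 at 4 h, 0.465 at 8 h and 0.403 at 24 h. All 3 retinol arrays lay far below the VAD array and close to one another. The log2 differences were -1.40, -1.15 and -1.35, which is 2.65-fold, 2.22-fold and 2.56-fold lower than VAD and 3.32, 2.23 and 2.37 times the noise of 1 probe set. At 4 h only 28 of the 7006 probe sets, Kdr included, were as low, and 106 and 73 were at 8 h and 24 h.

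Angpt2, probe set AF030378_at, had a ratio of 1.06 in VAD, then 0.717 at 4 h, 0.397 at 8 h and 0.409 at 24 h. It was therefore intermediate at 4 h and lowest at 8 h and 24 h. Its differences from VAD were -0.57, -1.42 and -1.38, or 1.34, 2.77 and 2.41 times the noise, and 605, 40 and 71 probe sets were as low at the 3 times. Between the retinol arrays, Angpt2 was 0.85 lower at 8 h than at 4 h, 2.58 times the noise of that comparison. Over the same interval Kdr differed by 0.26, within its noise. Kdr was thus past 2-fold on the 4 h array, and Angpt2 first on the 8 h array.

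**Figure D1:**
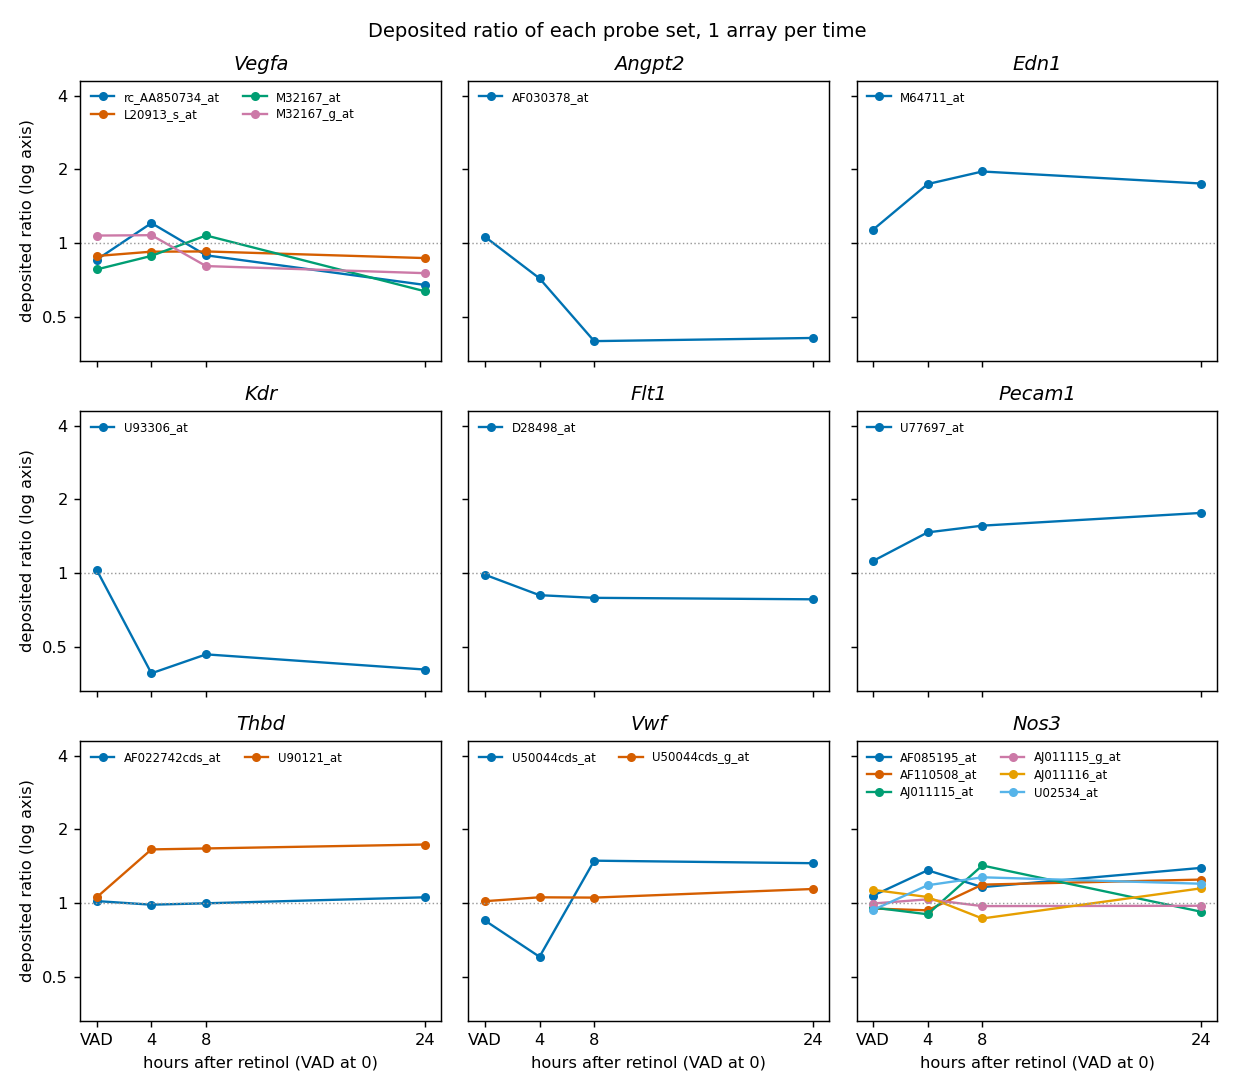
Deposited ratio (log axis) of each of the 19 probe sets against hours after retinol, with VAD at 0 h, a panel per gene, a line per probe set and 1 array per point. Kdr lies near 0.4 on all 3 retinol arrays, Angpt2 reaches 0.397 at 8 h, and the probe sets of Thbd and Vwf part from each other.

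Flt1, probe set D28498_at, read 0.985 in VAD, then 0.812 at 4 h, 0.792 at 8 h and 0.781 at 24 h. The changes of -0.28, -0.31 and -0.33 had the sign of those of Kdr but were smaller than the noise, and 2069, 2249 and 2235 probe sets were as low. The VEGF receptor genes shared a sign on these arrays, with Flt1 no further from VAD than many other transcripts.

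Vegfa was read by 4 probe sets. The expressed sequence tag probe set rc_AA850734_at had ratios of 0.855 in VAD, then 1.21 at 4 h, 0.891 at 8 h and 0.674 at 24 h. From database sequence M32167, M32167_at had 0.780, 0.886, 1.07 and 0.635 in the same order of arrays, and M32167_g_at had 1.07, 1.08, 0.805 and 0.753. L20913_s_at stayed within a narrow span, at 0.885, 0.922, 0.924 and 0.868. All 4 read lowest at 24 h. Against VAD they were higher at 4 h in 4 of 4 (0.01 to 0.50), higher at 8 h in 3 of 4 (-0.41 to 0.46) and lower at 24 h in 4 of 4 (-0.51 to -0.03). With a ratio of 1 in place of the VAD value, they were higher in 2 of 4 at 4 h (-0.17 to 0.27) and in 1 of 4 at 8 h (-0.31 to 0.10), and lower in 4 of 4 at 24 h (-0.66 to -0.20). Only the 4 h value of rc_AA850734_at exceeded the noise of 1 probe set, at 1.17 times, and the 24 h values all lay inside it. Against the 4 h array, where VAD does not enter, the 24 h array was lower by 0.84, 0.09, 0.48 and 0.52 for rc_AA850734_at, L20913_s_at, M32167_at and M32167_g_at, and 3 of the 4 exceeded the noise of 0.38.

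Edn1, probe set M64711_at, had ratios of 1.13 in VAD, then 1.74 at 4 h, 1.96 at 8 h and 1.75 at 24 h. Every retinol array lay above VAD, with the highest value at 8 h. The changes of 0.62, 0.79 and 0.63 were 1.54-fold, 1.73-fold and 1.55-fold higher and 1.47, 1.54 and 1.10 times the noise, below the 2-fold threshold each time. As many as 499, 462 and 739 probe sets were as high.

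Among the endothelial surface and haemostasis genes, Pecam1 (U77697_at) had ratios of 1.12 in VAD, then 1.47 at 4 h, 1.56 at 8 h and 1.76 at 24 h. It was highest at 24 h, where the change of 0.65 was 1.15 times the noise, after 0.39 and 0.48 inside it. For Thbd, U90121_at read 1.06 in VAD, then 1.66 at 4 h, 1.67 at 8 h and 1.74 at 24 h, with changes of 0.65, 0.66 and 0.72. The other Thbd probe set, AF022742cds_at, read 1.02, 0.985, 0.998 and 1.06 on these arrays, with changes of -0.05, -0.03 and 0.05. The pair stood 0.70, 0.69 and 0.67 apart at 4, 8 and 24 h. The noise of 1 probe set was 0.42, 0.51 and 0.57, and a gap between 2 holds the noise of both. Such a gap is therefore not unusual, and the higher Thbd values rest on U90121_at alone.

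For Vwf, 2 probe sets from 1 database sequence also read differently. U50044cds_at read 0.849 in VAD, then 0.603 at 4 h, 1.49 at 8 h and 1.46 at 24 h. U50044cds_g_at read 1.02, 1.06, 1.05 and 1.14 in the same order. The first lay below VAD at 4 h and above it at 8 h and 24 h (-0.49, 0.81 and 0.78), and the second within 0.17 of VAD throughout. Between 8 h and 4 h U50044cds_at differed by 1.31 (2.47-fold higher at 8 h, 3.95 times the noise), while U50044cds_g_at differed by 0.00. Only 15 of the 7006 probe sets, U50044cds_at included, were as high in that comparison.

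Nos3 was read by 6 probe sets from 5 sequences, with ratios of 0.937 to 1.13 in VAD, then 0.900 to 1.36 at 4 h, 0.865 to 1.43 at 8 h and 0.922 to 1.39 at 24 h. The ranges overlapped on all 4 arrays. Mean changes against VAD were 0.09 ± 0.20, 0.17 ± 0.35 and 0.18 ± 0.22 at 4, 8 and 24 h (SD over the 6 probe sets, which are not replicates of an array). The probe sets were higher in 3, 4 and 4 of 6. AJ011115_at stood at 0.57 at 8 h, the 1 Nos3 value past the noise against VAD, while AJ011115_g_at from the same sequence stood at -0.04. AJ011115_at was also 0.66 higher at 8 h than at 4 h and at -0.63 for 24 h against 8 h, 2.0 and 1.96 times the noise. AF085195_at read 1.07 in VAD, then 1.36, 1.16 and 1.39 at the 3 times (0.35, 0.12 and 0.38), and U02534_at read 0.937, 1.183, 1.275 and 1.2 on the same arrays (0.34, 0.44 and 0.36). Both were higher than VAD at all 3 times, within the noise. AF110508_at read 0.95, 0.934, 1.19 and 1.25 on the 4 arrays (-0.02, 0.32 and 0.39), and was 0.42 higher at 24 h than at 4 h, 1.09 times the noise. AJ011116_at read 1.13, 1.06, 0.865 and 1.15 (-0.10, -0.39 and 0.02), and was 0.41 higher at 24 h than at 8 h, 1.28 times the noise. The 6 probe sets thus shared no single course.

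**Figure D2:**
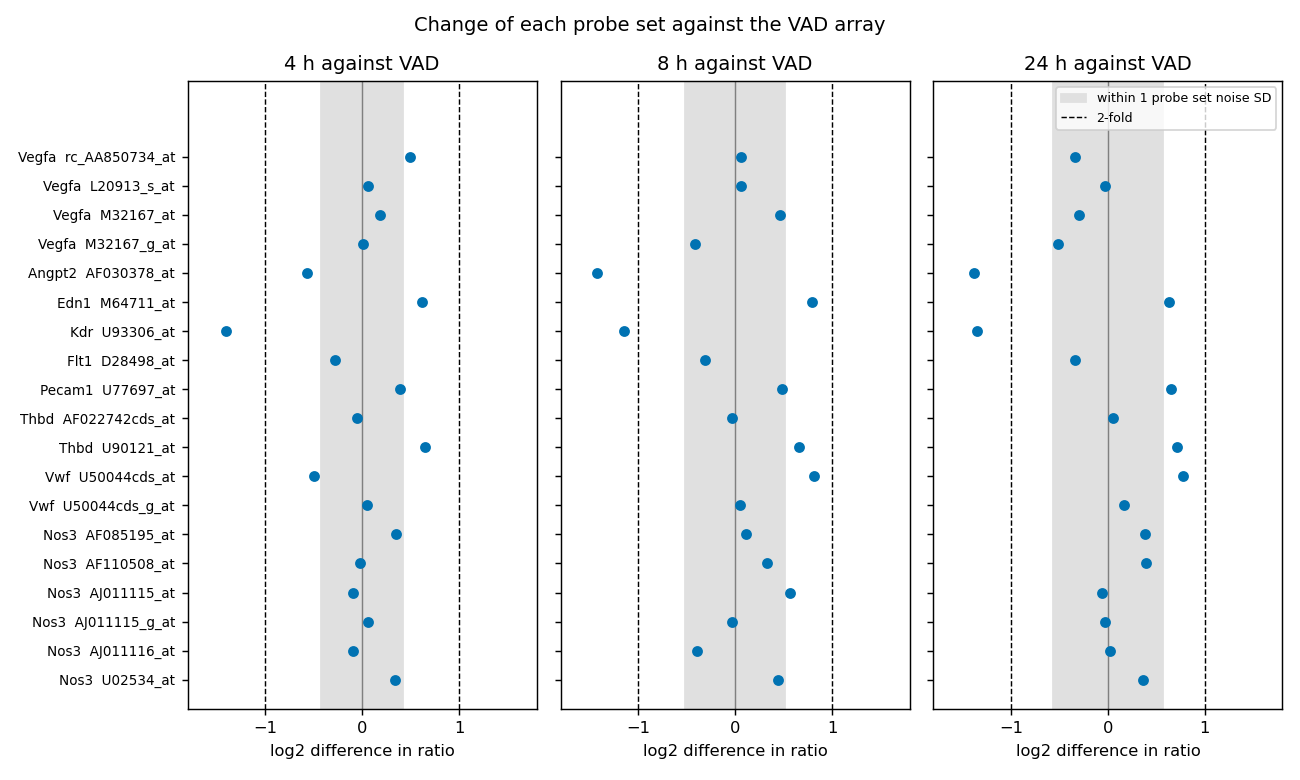
Log2 difference in deposited ratio of each of the 19 probe sets at 4, 8 and 24 h against the VAD array; the grey band is 1 noise SD of a probe set to either side of 0 and dashed lines mark 2-fold. Kdr passes 2-fold lower at each time and Angpt2 at 8 h and 24 h; no probe set passes 2-fold higher, and 13 of the 19 lie within the band at each time.

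Counted together, none of the 19 probe sets was at least 2-fold higher at 4, 8 or 24 h against VAD, and 1, 2 and 2 were at least 2-fold lower. Over all 7006 probe sets 2.21%, 4.04% and 4.68% were at least 2-fold higher at these times and 1.58%, 2.53% and 3.41% at least 2-fold lower. The lower members were Kdr at 4 h and Kdr with Angpt2 at 8 h and 24 h, so the counts rest on 2 genes with 1 probe set each. For 8 h against 4 h, 1 probe set (U50044cds_at of Vwf) was at least 2-fold higher and none lower, where 0.885% and 1.04% of all probe sets were. For 24 h against 8 h none passed in either direction, where 0.899% and 0.856% of all did. For 24 h against 4 h the same Vwf probe set was 1.27 higher and none was lower, where 1.47% and 1.53% of all probe sets passed. The median change over the 19 probe sets was 0.05, 0.06 and 0.02 at 4, 8 and 24 h, beside -0.09, -0.11 and -0.11 over all probe sets. Of the 19, 13, 14 and 13 lay above the median of all. The median size of change, sign ignored, was 0.28, 0.41 and 0.36 for the members and 0.27, 0.32 and 0.35 for all probe sets. The 3 comparisons against VAD share the VAD array, so they are not independent readings.

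**Figure D3:**
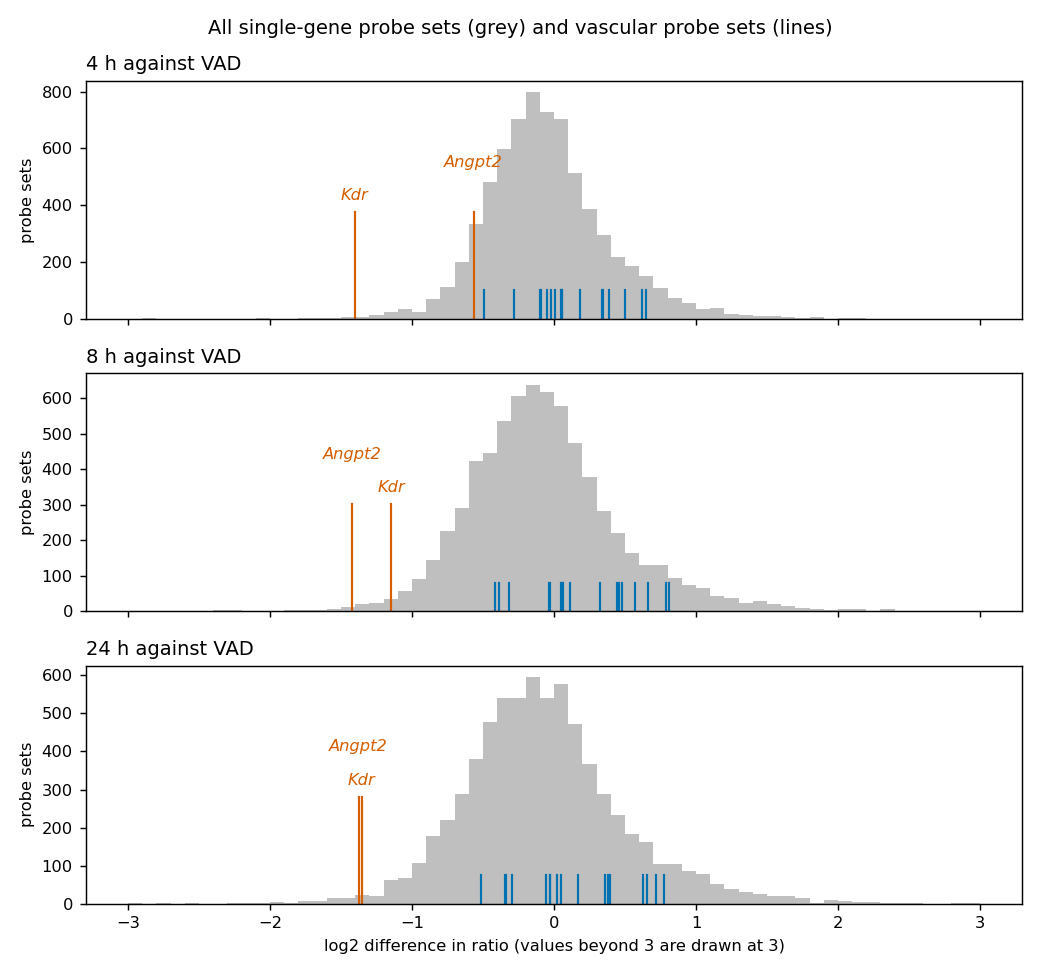
Histograms of the log2 difference in deposited ratio over all 7006 single-gene probe sets (grey) at 4, 8 and 24 h against VAD, with the 19 vascular probe sets as vertical lines, Kdr and Angpt2 tall and in orange. Kdr sits in the lower tail at each time and Angpt2 at 8 h and 24 h, while the other lines fall within the body of the histogram.

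Scaling of the arrays bears on the signs. All 9 bacterial spike-in probe sets, normally added to every sample in set amounts, were lower on each retinol array than on VAD, with medians of -0.55, -0.58 and -0.71. Scaling each array on its median spike-in would move every probe set up by 0.55, 0.50 and 0.62 at 4, 8 and 24 h. Kdr would then be at -0.86, -0.65 and -0.73 and Angpt2 at -0.02, -0.92 and -0.76, still below VAD but short of 2-fold. These would be the 2 probe sets of 19 below VAD at each time, Flt1 would turn to 0.27, 0.19 and 0.29, and the 24 h values of Vegfa would turn to 0.11 to 0.59. Edn1 would be at 1.17, 1.29 and 1.25. The order of members within an array is left as it is by this step. The 5′ probe sets of the actin, GAPDH and hexokinase controls were also higher relative to their 3′ probe sets than on VAD, by 0.71, 1.09 and 1.01 on average over the 3 transcripts. The position of the vascular probe sets along their transcripts was not used here, and the part of either shift in their changes was not tested.

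**Figure D4:**
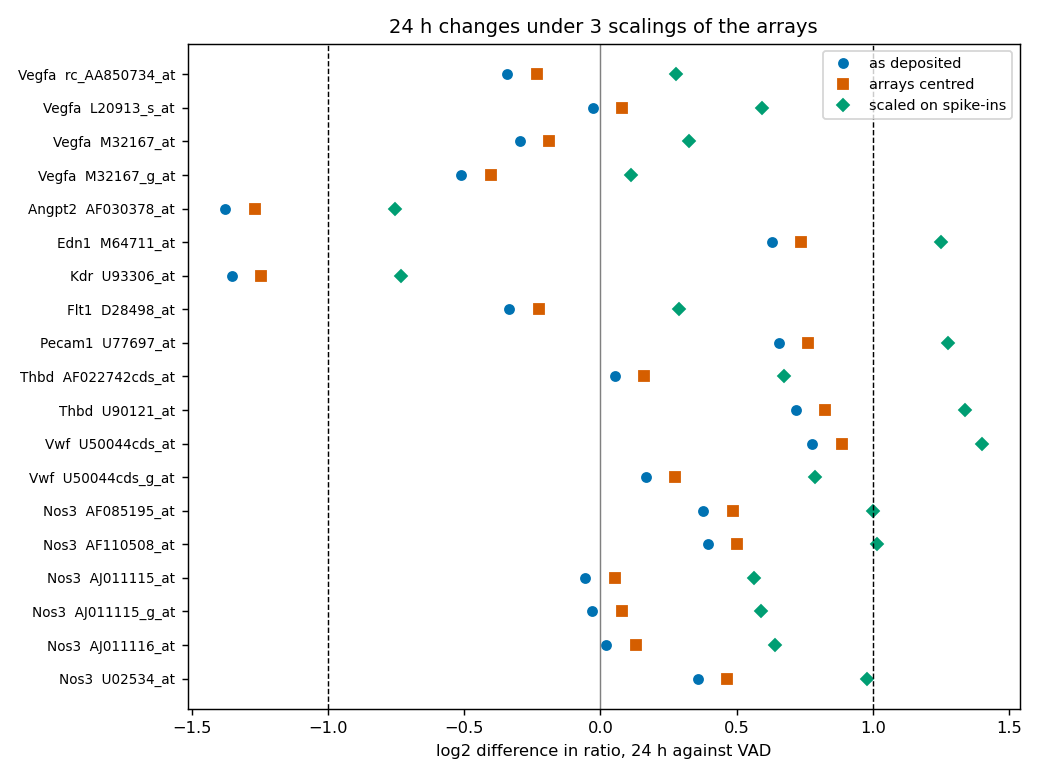
Log2 difference in deposited ratio at 24 h against VAD for each of the 19 probe sets, as deposited (circles), after centring each array on its median (squares) and after scaling on the spike-ins (diamonds), with dashed lines at 2-fold. Kdr and Angpt2 stay on the negative side under all 3 scalings, whereas Flt1 and Vegfa lie on both sides of 0.

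Other genes of the same systems were read from lists of related genes, as means over the probe sets of a gene. Over all 4736 genes the medians were -0.09, -0.12 and -0.12 at 4, 8 and 24 h, with 1.41%, 2.83% and 3.27% at least 2-fold higher and 1.25%, 1.88% and 2.64% at least 2-fold lower. The share of all genes above or below VAD was not counted, so counts of list genes by sign are not a result about a list. The lists overlap in a few genes, such as Cav1, Adm and Selp. Some list genes had VAD ratios well away from 1, which enter every change against VAD. A ratio of 1 in place of the VAD value was tried for the members only.

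Of 5 measured of 11 further VEGF and angiopoietin family genes, Vegfd passed 2-fold. This ligand of lymphatic growth had ratios of 1.38 in VAD, then 3.10 at 4 h, 3.19 at 8 h and 2.60 at 24 h, changes of 1.17, 1.21 and 0.91. Nrp1, the co-receptor that presents VEGF-A to VEGFR2, had 1.01, 0.560, 0.578 and 0.567, changes of -0.85, -0.80 and -0.83. Its course over the arrays, low from 4 h onwards, had the sign of that of Kdr. Each of these genes had 1 probe set, and a shared lower sign says little where the median over all genes also lay below VAD. Spike-in scaling would raise Nrp1, like every probe set, by 0.55, 0.50 and 0.62. Vegfb was at 0.19, 0.39 and 0.31, the placental growth factor gene Pgf at 0.15, -0.18 and -0.45, and Nrp2 at -0.07, 0.30 and 0.11. The list medians were 0.15, 0.30 and 0.11. Angpt1 and the receptor genes Tek and Tie1 had no such probe set, so they are not analysed here.

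Among 20 measured of 29 other angiogenic ligands and receptors, 1, 1 and 3 were at least 2-fold higher at 4, 8 and 24 h and none 2-fold lower (medians 0.03, 0.09 and -0.01). Efnb1, an ephrin of cell contact signalling, was at 1.19, 2.23 and 2.09, and the hepatocyte growth factor receptor gene Met reached 1.07 at 24 h from 3 probe sets at 0.68 to 1.64. The vasodilator gene Adm reached 1.04 at 24 h. The Notch ligand gene Jag1 was at -0.96, -0.84 and -0.94. The 19 measured of 30 genes that relay VEGF receptor signals had medians of -0.08, -0.02 and 0.01, with 1, 1 and 2 at least 2-fold higher and none 2-fold lower. The kinase gene Akt2 was at 1.03, 1.35 and 1.70, with low VAD ratios of 0.579 and 0.609 for its 2 probe sets. Their ratios at 24 h were 1.385 and 2.704. The phosphoinositide 3-kinase subunit gene Pik3r1 was at 1.17 at 24 h, with VAD ratios of 0.656 and 0.854 for its 2 probe sets. Plcg1, the phospholipase that binds activated VEGFR2, was at -0.63, -0.91 and -0.80.

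The 17 measured of 25 hypoxia response genes, a set that includes regulators and targets of the factor that induces Vegfa, had medians of 0.08, 0.08 and 0.18, with 2, 2 and 3 at least 2-fold higher and none lower. These were the transferrin receptor gene Tfrc (1.57, 2.34 and 1.23) and the glycolytic regulator gene Pfkfb3 (1.03, 1.37 and 1.06) each time, with Adm at 24 h. Hif1a, the oxygen-regulated subunit, was at 0.71, 0.78 and 0.84. The glycolytic enzyme gene Aldoa was at 0.81, 0.99 and 0.93, from 1 probe set. Pgk1, also a glycolytic enzyme gene, went the other way, at -0.95 at 24 h, with 3 probe sets at -1.43 to -0.65. The 6 measured of 10 other endothelin system genes had medians of 0.02, -0.24 and -0.17 and none passed 2-fold. Among them the converting enzyme gene Ece1 was at 0.25, 0.45 and 0.49, though its 2 probe sets stood at -0.11 and 1.09 at 24 h, and the ligand gene Edn3 was at -0.55, -0.47 and -0.18, from 2 at -0.53 and 0.18 at 24 h. Ednra, like Ednrb, is not analysed here.

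Of 18 measured of 24 other nitric oxide and cyclic GMP genes, Cav1 was at least 2-fold higher each time and the arginase gene Arg2 at least 2-fold lower at 8 h (-1.32). Their medians were -0.03, 0.05 and 0.05. Cav1, the caveolar coat protein that holds endothelial nitric oxide synthase inactive, had ratios of 0.879 in VAD, then 2.07 at 4 h, 2.32 at 8 h and 3.28 at 24 h (1.24, 1.40 and 1.90). The arginine transporter gene Slc7a1 was at -0.49, -0.80 and -0.89, from 3 probe sets at -1.63 to -0.22 at 24 h. The 12 measured of 19 other coagulation and fibrinolysis genes had medians of -0.04, -0.16 and -0.19, with none past 2-fold. Below VAD lay 6, 8 and 10 of the 12 at 4, 8 and 24 h, where the medians over all genes, -0.09, -0.12 and -0.12, also lay below it. After spike-in scaling the medians of this list would be 0.51, 0.34 and 0.44. Plat, which encodes tissue plasminogen activator, was at 0.58, 0.55 and 0.79, and the thrombin receptor gene F2r at -0.23, -0.57 and -0.69.

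**Figure D5:**
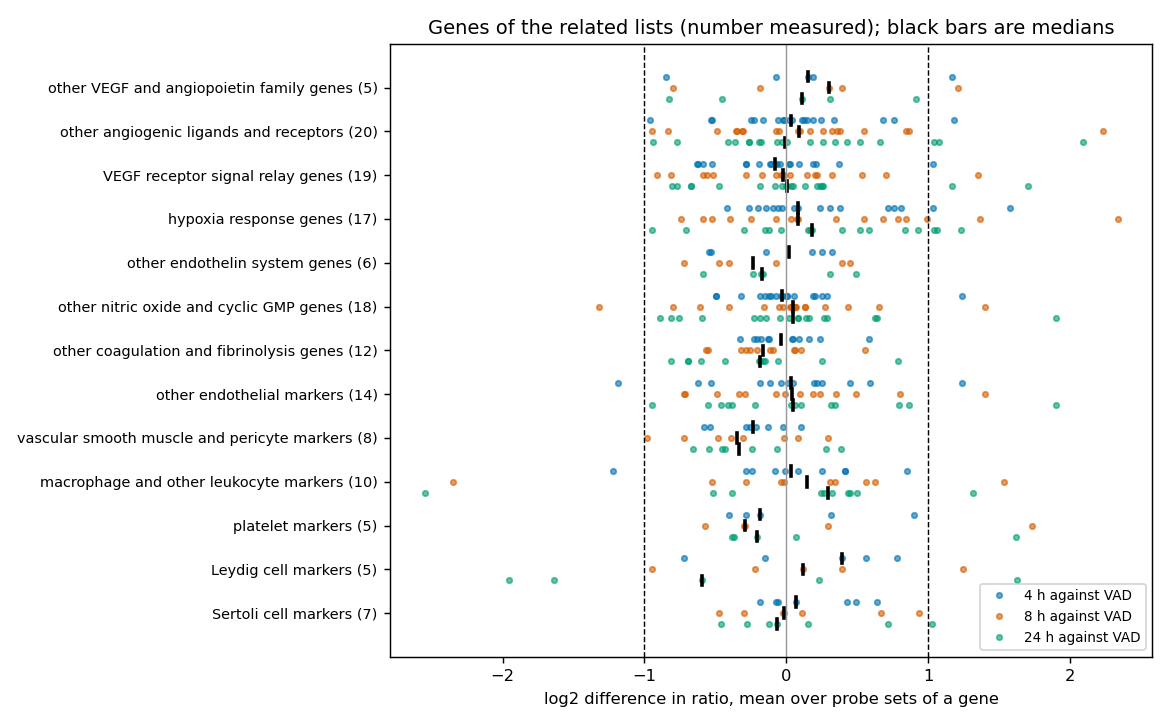
Log2 difference in deposited ratio of each gene of the 13 related lists, as the mean over its probe sets, at 4, 8 and 24 h against VAD; black bars are list medians, dashed lines mark 2-fold and the number of genes measured stands in brackets. List medians lie within 0.6 of 0, and most genes lie between the 2-fold lines; the Leydig list is the exception at 24 h, with 3 of its 5 genes past them.

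Of 14 measured of 38 other endothelial markers, 1 was at least 2-fold higher at each time, Cav1, and 1 was 2-fold lower at 4 h, the leukocyte adhesion receptor gene Sele (-1.18, then -0.71 and -0.95). The list medians were 0.03, 0.04 and 0.05, and 8, 7 and 8 of the 14 lay above VAD. The water channel gene Aqp1 was at 0.59, 0.80 and 0.87, with a low VAD ratio of 0.732. The angiotensin-converting enzyme gene Ace was at 0.79 at 24 h. Acvrl1, an endothelial receptor of the TGF-beta family, was at -0.53, -0.49 and -0.41, and the transcription factor gene Klf4, which laminar flow raises in endothelium, at -0.62, -0.72 and -0.55. Endothelial markers, members and others alike, thus lay on both sides of VAD on the same arrays.

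Markers of cells that lie near vessels or share some of these genes were also read. The 8 measured of 10 smooth muscle and pericyte markers had medians of -0.24, -0.35 and -0.34, with 7, 6 and 6 of 8 below VAD and none past 2-fold. Desmin (Des) was at -0.54, -0.98 and -0.43, and calponin (Cnn1) at -0.58, -0.72 and -0.66. Smooth muscle actin (Acta2) went the other way, at 0.11, 0.30 and 0.38, though its 3 probe sets stood at -0.42 to 1.04 at 24 h. Myh11 was at 0.28 at 24 h, from 3 probe sets at -0.03 to 0.60. After spike-in scaling the medians of this list would be 0.31, 0.15 and 0.28. In whole testis these muscle markers do not separate the muscle of vessels from the peritubular myoid cells around the tubules. The 5 measured of 8 platelet markers had medians of -0.19, -0.29 and -0.20. Of these, the platelet glycoprotein gene Gp5 was at 0.90, 1.73 and 1.62, at least 2-fold higher at 8 h and 24 h. The 10 measured of 15 leukocyte markers had medians of 0.04, 0.15 and 0.29. Among them Cd52 was at -1.22, -2.35 and -2.55 and Cd4 at 0.85, 1.54 and 1.32. Cd52 had a high VAD ratio of 2.875, then 1.23, 0.565 and 0.492, so its 4 h ratio still lay above 1. Those of Cd4 were 0.833, 1.51, 2.41 and 2.08 in the same order. Leydig markers (5 measured of 7) had medians of 0.39, 0.12 and -0.59, with Nr5a1 at least 2-fold higher at 8 h and 24 h and Cyp17a1 and Cyp11a1 at least 2-fold lower at 24 h. Sertoli markers (7 measured of 10) had medians of 0.07, -0.01 and -0.07, with 3 of 7 above VAD and 4 below at 24 h. Wt1 was at 1.03 at 24 h, from 3 probe sets at 0.07 to 1.59. Summed levels cannot be formed from ratios, and the part of a shift in cell numbers in the vascular changes was not tested.

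The genes most like 2 of the vascular probe sets over the 3 changes against VAD were taken by the smallest distance on the log2 scale, for the highest and the lowest member at 24 h. Nearest to Angpt2 were Polr2i, an RNA polymerase II subunit gene (distance 0.17), the fatty acid binding protein gene Fabp5 (0.18), LOC102553736 (0.23), the RNA polymerase I factor gene Taf1c (0.27) and the endoplasmic reticulum complex gene Emc8 (0.32). Nearest to U50044cds_at of Vwf were Chat, the acetylcholine synthesis gene (0.29), the guanylate cyclase gene Gucy2e (0.33), Wfdc18 (0.39), the kinase gene Pak1 (0.39) and the sulfotransferase gene Sult1d1 (0.39). Each of the 10 was read by 1 probe set, and a likeness over 4 arrays that share VAD is a description only.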

How the data were processed

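The deposited table holds linear ratios per probe set; per the labels it is normalized, and per the submitters' processing notes GCOS and MAS5 were used. The denominator, any pooling of animals and how arrays were scaled were not given in the sources used here. Of 8799 probe sets in the table, 59 were controls. Of the others, 7006 carried 1 symbol, 308 several and 1426 were absent from the platform annotation used. Symbols were updated by Entrez ID through RefSeq (GRCr8), where 6985 matched. The 4 VAD, 4, 8 and 24 h columns had medians of 0.995, 0.934, 0.923 and 0.922.

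Log2 ratios were subtracted between arrays with Python 3.11.15 and pandas 2.3.3, with no filter, floor or pseudocount, and calls were made at 2-fold. The functions were checked on simulated data. Noise used 1 probe set from each of the first 2 database sequences of a gene, in order of probe set name. Gene values are means over probe sets. Named were all member probe sets, list genes past 2-fold against VAD, and the 5 genes nearest to each of 2 member probe sets. Up to 4 further genes of a list were named from those with larger mean absolute changes. Some genes with a larger change than a named one were left out. Acta2 and Myh11 were named in addition, as the smooth muscle and pericyte markers above VAD at 24 h. Members and lists were chosen with earlier results of these data known. Alternatives were centring, spike-in scaling, a baseline of 1, a 1.5-fold threshold, gene means, probe sets near 1 in VAD and, for lists, the probe set with the highest ratio on average. RNA input was 10 µg per the labels. The number of arrays limits precision.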

Additional observations from a re-analysis of the deposited data

How the results depend on the processing

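Scaling on the spike-ins gave 3, 4 and 5 member probe sets at least 2-fold higher at 4, 8 and 24 h against VAD and 0 lower each time, and the member medians became 0.60, 0.56 and 0.64. It adds 1 constant per array (0.55, 0.50 and 0.62) to every probe set of the array, members or not. The share of all probe sets passing was not counted after this scaling or at a 1.5-fold threshold. The member counts under these 2 settings are therefore not a result about the members. At a 1.5-fold threshold 2, 3 and 4 probe sets were higher against VAD at these times. At that threshold 2 were higher and 1 lower at 8 h against 4 h, 2 were lower at 24 h against 8 h, and 2 were lower at 24 h against 4 h. The Vwf probe set that was 2-fold higher at 8 h and at 24 h against 4 h was lost when gene means were used (0 in both comparisons) and when only probe sets with a VAD ratio within 10% of 1 were kept (0 in both), because its partner differed little and its own VAD ratio was 0.849. Centring each array, or a ratio of 1 in place of the VAD column, kept every count past 2-fold within 1.5 times of its value and moved each member change by less than the noise of 1 probe set. Signs of small member changes did turn. Of 19 probe sets, centring turned 2, 2 and 3 at 4, 8 and 24 h, a ratio of 1 turned 3, 2 and 0, and spike-in scaling turned 6, 5 and 7. Spike-in scaling raised the list medians by 0.50 to 0.62 and changed the sign of 18 of 39; centring changed 7 of 39 and the probe set of the highest mean 5 of 39. No paired analysis was possible because each group holds 1 sample. No replicate could be left out for the same reason. The ratios carry no signal over background, so a dim probe set cannot be told from a bright one.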
